A study of Mus musculus with 13 samples.

Results

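The genes described are 9 mouse alpha-defensins (Defa3, Defa17, Defa20, Defa21, Defa22, Defa24, Defa26, Defa30 and Defa34) and Mmp7, the protease that activates them. They were taken by gene symbol from the array's annotation, and each of the 10 has a single probe set among the 19505 genes measured. RNA came from whole ileum and whole colon of female FVB mice carrying a syngeneic mammary carcinoma that expresses human HER2, a tumour borne by all 4 groups, controls included. The vancomycin groups drank water with the antibiotic at 200 mg/L, begun at 4 weeks of age, and the experiment ended at 9 weeks, which the labels do not tie to age or to treatment. The arrays comprised 4 colons without antibiotic (replicates 1, 2, 3 and 5), 3 colons with vancomycin (11, 13 and 14), 3 ilea without antibiotic (1, 2 and 3) and 3 ilea with vancomycin (11, 13 and 14). The labels do not state that each array is a separate mouse, nor any cage or array batch. The p-values therefore reflect only how much these arrays vary, which may be technical. Ileum and colon arrays share replicate numbers, but the labels do not say that a number marks a mouse.

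Paneth cells lie at the base of the crypts of the small intestine and release granules filled with antimicrobial proteins into the crypt lumen. Alpha-defensins, called cryptdins in the mouse, are short cationic peptides held by disulfide bonds that damage bacterial membranes. Mouse Paneth cells make them as inactive precursors, and Mmp7 (matrilysin), a secreted metalloproteinase stored in the same granules, cuts off the inhibitory segment. The mouse colon normally holds few or no Paneth cells. In whole tissue, a lower level of these transcripts from fewer Paneth cells and from less RNA per cell cannot be told apart.

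Because the mouse alpha-defensin genes are near copies of one another, the probe sets were first checked for shared values. The 9 alpha-defensin genes lie on chromosome 8, and Mmp7 lies on chromosome 9 between Mmp20 and Tmem123 among coding genes. The probe sets of Defa3 and Defa17 held the same value in every one of the 13 arrays, so they count as 1 measurement. Defa20 shared all its values with Defa32, which is not among the 9, and Defa2 shared all of its values with Defa33. Of the 22 alpha-defensin probe sets on the array, 6 (27.3%) thus duplicate another, against 51 of 19572 named probe sets (0.261%), which leaves 19 distinct alpha-defensin measurements. A value attributed here to one of these genes may include transcripts of its relatives, and Defa3 is written below for the pair Defa3 and Defa17.

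The sequence upstream of the genes shows how close the relatives are. RefSeq promoters (GRCm38.p6, 250 bases before to 50 after the start) were found for 5 of the 10 genes, namely Defa20, Defa21, Defa22, Defa30 and Mmp7. The windows of Defa21 and Defa22 were identical over 300 bases, and that of Defa20 matched them at 293 of 300 (97.7%). Defa30 was more distant, with 214 of 270 aligned bases (79.3%) shared with Defa20 and 217 of 270 (80.4%) with Defa22. The following stretches run from 150 bases before to 20 after the start on the plus strand, with 2 motifs in capitals: TATAAA, the TATA box, and TCAAAG, the core bound by TCF factors of the Wnt pathway, which is known to drive the Paneth cell programme. Defa20 and Defa22 are shown because treated and untreated ilea separated in the first and overlapped in the second, and Defa30 and Mmp7 because their tissue differences were larger. The coordinates are chr8:21509108-21509277 for Defa20, chr8:21162127-21162296 for Defa22, chr8:21134500-21134669 for Defa30 and chr9:7691940-7692109 for Mmp7.
Defa20: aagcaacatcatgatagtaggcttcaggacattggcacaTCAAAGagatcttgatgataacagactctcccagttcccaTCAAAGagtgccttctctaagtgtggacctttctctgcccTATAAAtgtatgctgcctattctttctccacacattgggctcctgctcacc
Defa22: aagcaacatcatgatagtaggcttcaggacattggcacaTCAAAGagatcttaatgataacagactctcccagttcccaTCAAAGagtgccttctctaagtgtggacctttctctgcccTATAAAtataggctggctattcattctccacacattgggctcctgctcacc
Defa30: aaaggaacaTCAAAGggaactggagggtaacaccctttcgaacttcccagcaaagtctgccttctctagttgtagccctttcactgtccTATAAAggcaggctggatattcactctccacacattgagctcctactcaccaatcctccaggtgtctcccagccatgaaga
Mmp7: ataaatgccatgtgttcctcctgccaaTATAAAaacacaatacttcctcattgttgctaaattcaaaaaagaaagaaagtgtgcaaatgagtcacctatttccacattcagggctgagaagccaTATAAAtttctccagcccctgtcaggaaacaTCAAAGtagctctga

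The Defa20 and Defa22 stretches carry TATAAA 31 bases before the start and TCAAAG in 2 places, 80 and 40 bases before the TATAAA. Defa30 has TATAAA 61 bases before its annotated start and a single TCAAAG, which likewise lies 80 bases before the TATAAA. In Mmp7, TATAAA lies 123 and 26 bases before the start and TCAAAG 5 bases after it. A second annotated Mmp7 start has a window (chr9:7692091-7692390) that overlaps the first. Its TCAAAG, 246 bases before that start, is the same site as the one 5 bases after the first start. TATAAA is not among the letters of this second window. Both strands were searched and the motifs do not overlap in these windows. Among 32851 RefSeq promoters of the same length, 13.6% hold TATAAA, 16% hold TCAAAG and 2.69% hold both, and 1.73% hold TCAAAG in at least 2 places. Of the 16 alpha-defensin promoters in that table, 15 hold TATAAA and 13 hold TCAAAG. A match describes the letters and is not evidence of binding.

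Levels are log2 values normalised by the authors with RMA, and 1 unit corresponds, nominally, to a doubling. A level in one probe set cannot be set against the level in another. The marker genes fitted the tissue labels: the mean of 15 enterocyte genes lay between 13.93 and 15.13 in the ileum arrays and between 8.552 and 9.315 in the colon arrays, while the mean of 10 colonocyte genes lay between 9.446 and 10.27 in ileum and between 12.81 and 13.88 in colon. Vancomycin ileum replicate 11 stood apart from the other 5 ilea, with a mean of 14.32 for smooth muscle genes (12.73 to 13.37 in the others), 11.42 for fibroblast genes (10.36 to 10.51), 10.74 for B cell genes (7.854 to 8.61) and 13.93 for enterocyte genes (14.77 to 15.13). Its part in the results below was measured by leaving it out.

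The first comparison asked where these genes are expressed. All 10 genes were higher in every ileum array than in every colon array, in both treatment states. The share of all probe sets that separate in this way was not counted. Without antibiotic, limma called 9 of the 10 higher in ileum, where 9.59% of all 19572 named probe sets were called higher and 11% lower, and with vancomycin all 10, where 7.67% were called higher. The tenth gene without antibiotic was Defa20, with a difference of 0.43 ± 0.18 (SE; limma, adjusted p = 0.118).

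**Figure D1:**
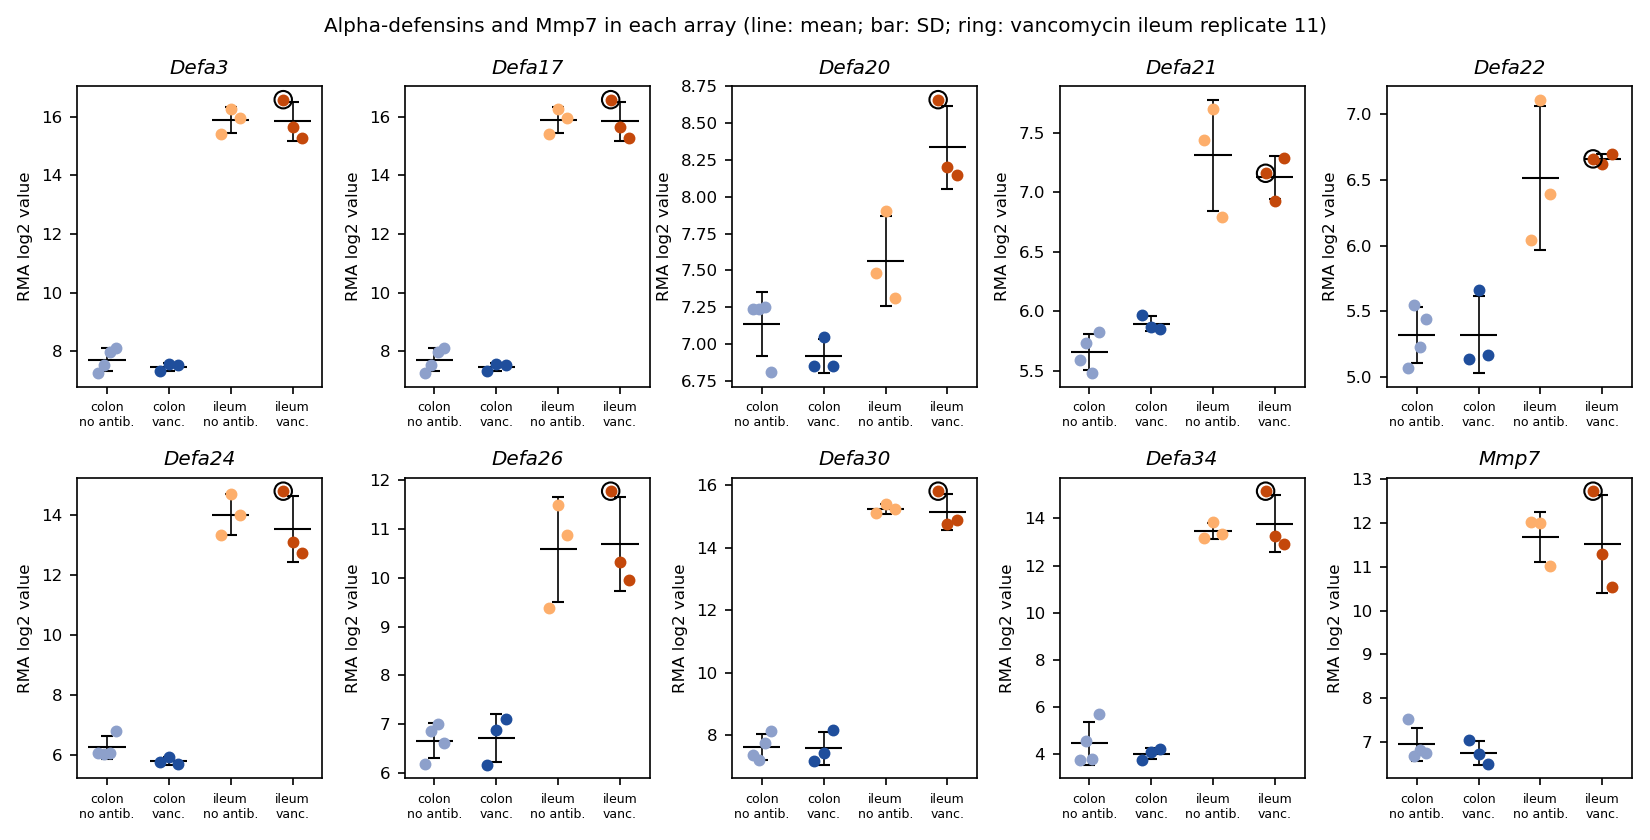
RMA log2 value (vertical axis) of the 9 alpha-defensins and Mmp7 in each of the 13 arrays, by tissue and treatment; each dot is an array, the line and bar give the group mean and SD, and the ring marks vancomycin ileum replicate 11. The ileum dots lie above the colon dots in every panel, and the no-antibiotic and vancomycin ilea overlap in all panels except that of Defa20.

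Defa3 encodes a cryptdin precursor. In ileum without antibiotic it measured 15.42, 16.27 and 15.96, and in ileum with vancomycin 16.58, 15.66 and 15.27. In colon it measured 7.26, 7.53, 7.97 and 8.13 without antibiotic and 7.32, 7.58 and 7.53 with vancomycin. The ileum exceeded the colon by 8.16 ± 0.29 (SE; limma, adjusted p = 1.442e-10) without antibiotic and by 8.36 ± 0.31 (limma, adjusted p = 2.934e-10) with it, and the treated and untreated ilea overlapped. Values above 16, which this row reaches in both ileum groups and which occur in 437 probe sets of the table, exceed the range of a 16-bit scanner before normalisation, so differences at this end of the scale are not exact intensity ratios.

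Defa30 and Defa34 also had large tissue differences. Defa30 measured 15.10, 15.39 and 15.23 in the untreated ilea, 15.81, 14.77 and 14.88 in the treated ilea, and 7.16 to 8.18 across the 7 colons. Its ileum excess was 7.62 ± 0.29 without antibiotic (limma, adjusted p = 2.882e-10) and 7.57 ± 0.31 with it (adjusted p = 7.795e-10). The 3 untreated ilea were close together for Defa30 (SD 0.15), whereas the treated ilea spanned them on both sides (SD 0.57).
Defa34 measured 13.19, 13.84 and 13.35 in the untreated ilea and 15.16, 13.24 and 12.92 in the treated ilea. The colons measured 3.76, 4.56, 3.80 and 5.68 without antibiotic and 3.76, 4.09 and 4.20 with it. Replicate 11 was the highest ileum and the other treated ilea fell within or below the untreated range. Its differences of 9.01 ± 0.50 without antibiotic (limma, adjusted p = 1.379e-08) and 9.76 ± 0.54 with it (adjusted p = 1.539e-08) rest on colon values that cannot be separated from background.

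Defa24 and Defa26 varied more between ileum arrays. Defa24 measured 13.32, 14.69 and 13.98 without antibiotic and 14.78, 13.08 and 12.71 with vancomycin, against 6.04 to 6.81 and 5.69 to 5.93 in the corresponding colons. Defa26 measured 9.39, 11.49 and 10.88 without antibiotic and 11.78, 10.33 and 9.96 with vancomycin, against 6.18 to 7.01 and 6.17 to 7.10 in colon. For both genes, replicate 2 was the highest untreated ileum, replicate 11 the highest treated one, and the groups overlapped. The ileum excess of Defa24 was 7.75 ± 0.42 without antibiotic (limma, adjusted p = 9.102e-09) and 7.72 ± 0.44 with it (adjusted p = 2.445e-08), and that of Defa26 was 3.92 ± 0.47 (adjusted p = 3.404e-05) and 3.97 ± 0.51 (adjusted p = 8.045e-05).

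For Defa21 and Defa22 the tissues lay closer together on this scale. Defa21 measured 7.44, 7.70 and 6.79 in untreated and 7.16, 6.93 and 7.29 in treated ileum, against 5.48 to 5.83 and 5.85 to 5.97 in colon. Defa22 measured 6.04, 7.11 and 6.39 in untreated and 6.66, 6.62 and 6.70 in treated ileum, against 5.07 to 5.55 and 5.14 to 5.66 in colon. Treated ilea lay inside the untreated range for both genes. The ileum exceeded the colon by 1.65 ± 0.19 for Defa21 (limma, adjusted p = 1.922e-05) and 1.19 ± 0.22 for Defa22 (adjusted p = 0.00137) without antibiotic, and by 1.23 ± 0.20 (adjusted p = 0.000667) and 1.34 ± 0.24 (adjusted p = 0.00126) with it.

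Mmp7, the activating protease, measured 12.02, 12.01 and 11.03 in the untreated ilea and 12.73, 11.29 and 10.54 in the treated ilea. Colons measured 7.51, 6.68, 6.82 and 6.75 without antibiotic and 7.04, 6.73 and 6.49 with vancomycin. Treated and untreated ilea overlapped, and replicate 11 was again the highest. The ileum excess was 4.75 ± 0.41 without antibiotic (limma, adjusted p = 1.235e-06) and 4.77 ± 0.44 with it (adjusted p = 3.293e-06). Of the 70 colon values of the 10 genes, 66 lay below the median of all named probe sets on their array. The deposited table used here gives no detection calls, so a low level cannot be separated from background. This limit also holds in ileum for Defa21 and Defa22, and for Defa20 without antibiotic. Their values there lay below every array median (7.92 to 8.12).

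The comparison at the centre of the design asked whether vancomycin, an antibiotic that acts mainly on gram-positive bacteria, changed these levels in the ileum. Limma called none of the 10 genes at an adjusted p of 0.05, and 0.536% of all probe sets (105 of 19572, 10 higher and 95 lower). Over their 9 distinct rows, 4 differed upward and 5 downward, with a median difference of -0.047 against 0.023 over all probe sets. At an unadjusted p under 0.05 limma called 1 of the 10 genes and 1977 of all probe sets (10.1%). The treated and untreated ilea did not overlap in 1 of the 10 genes, and in 16.9% of all probe sets.

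That gene was Defa20, the only one of the 10 with every treated ileum (8.66, 8.20 and 8.15) above every untreated ileum (7.48, 7.90 and 7.31). Its untreated ilea lay below every array median (7.92 to 8.12), so their level cannot be separated from background. The difference was 0.77 ± 0.19 (95% interval 0.36 to 1.19; unadjusted p = 0.00128, limma adjusted p = 0.118). Across the 8 other ways of fitting or scaling the data the limma adjusted p ranged from 0.0264, with arrays weighted by their quality, to 0.337, with the ileum arrays alone. Leaving out an ileum array in turn gave 0.0687 to 0.5. In the weighted fit the treated ilea had weights of 0.302 (replicate 11), 3.79 (replicate 13) and 0.644 (replicate 14), so replicate 13 counted most. In colon Defa20 measured 7.24, 7.24, 7.25 and 6.81 without antibiotic and 6.85, 7.05 and 6.85 with it, so its ileum excess was 1.42 ± 0.19 in the vancomycin groups (limma, adjusted p = 0.000134).

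The other genes differed less or varied more between arrays. For Defa3 the vancomycin difference in ileum was -0.047 ± 0.31 (SE; 95% interval -0.72 to 0.63; limma, adjusted p = 0.978), and for Defa30 it was -0.087 ± 0.31 (-0.76 to 0.59; adjusted p = 0.959). For Defa24 it was -0.47 ± 0.44 (-1.43 to 0.48; adjusted p = 0.747) and for Defa34 0.31 ± 0.54 (-0.84 to 1.47; adjusted p = 0.884). A doubling therefore lies inside the interval of Defa34 and a halving inside that of Defa24. For Defa3, which reached values above 16, the interval does not bound a change in transcript amount. Defa30 stayed below 16 in ileum (14.77 to 15.81), but near it, and its interval may not bound such a change either.
Defa21 differed by -0.18 ± 0.20 (-0.62 to 0.25), Defa22 by 0.15 ± 0.24 (-0.36 to 0.66) and Defa26 by 0.10 ± 0.51 (-0.99 to 1.19). Mmp7 differed by -0.17 ± 0.44 (-1.11 to 0.78; limma, adjusted p = 0.935). The protease and its substrates thus both had no called change.

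**Figure D2:**
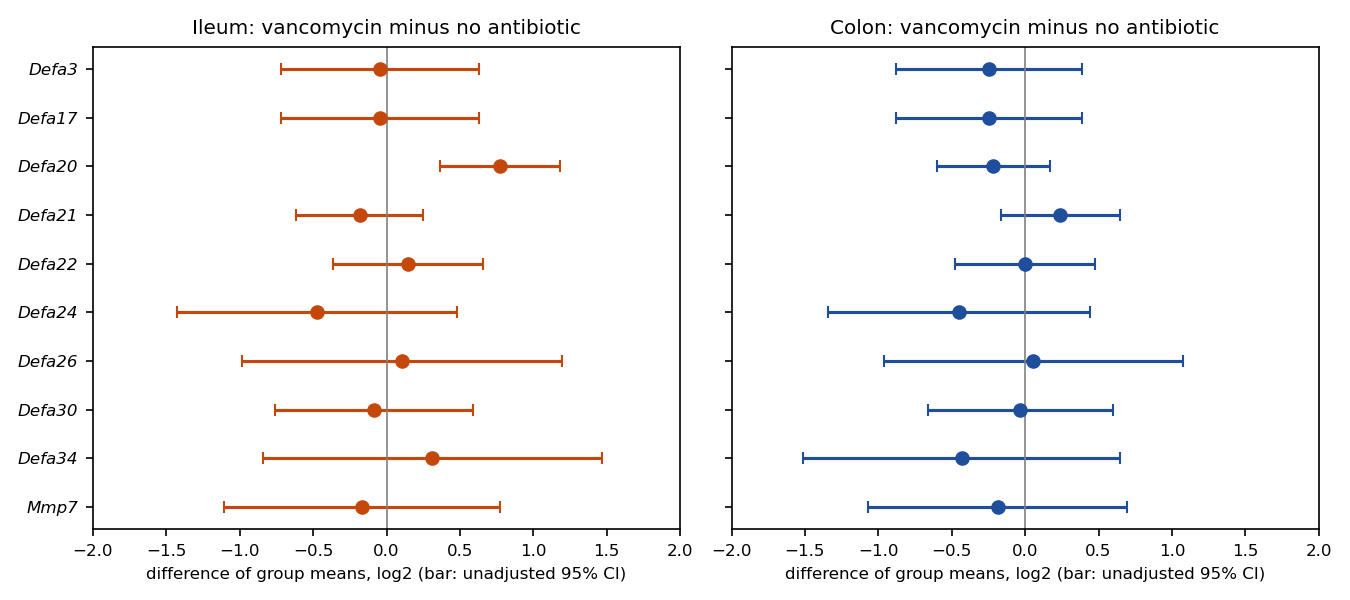
Difference of group means, vancomycin minus no antibiotic (horizontal axis, log2), for each of the 10 genes in ileum and in colon; dots are the differences and bars the unadjusted 95% intervals of the limma fit. The bar of Defa20 in ileum, 0.36 to 1.19, is the only one in either tissue that does not cross 0.

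A single treated ileum, replicate 11, gave the highest values in most of these genes. It was the highest of all 6 ilea in 8 of the 10 genes, and untreated replicate 2 in the remaining pair, Defa21 and Defa22. Over the 19 distinct alpha-defensin measurements, replicate 11 was highest in 16 and replicate 2 in 3. Measured against the mean of the untreated ilea, the median of these 19 rows was 1.29 in replicate 11, -0.26 in replicate 13 and -0.37 in replicate 14. The untreated ilea spread as well, with medians of -0.43 in replicate 1, 0.60 in replicate 2 and -0.087 in replicate 3, and replicate 2 exceeded the other untreated ilea in all 19.

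**Figure D3:**
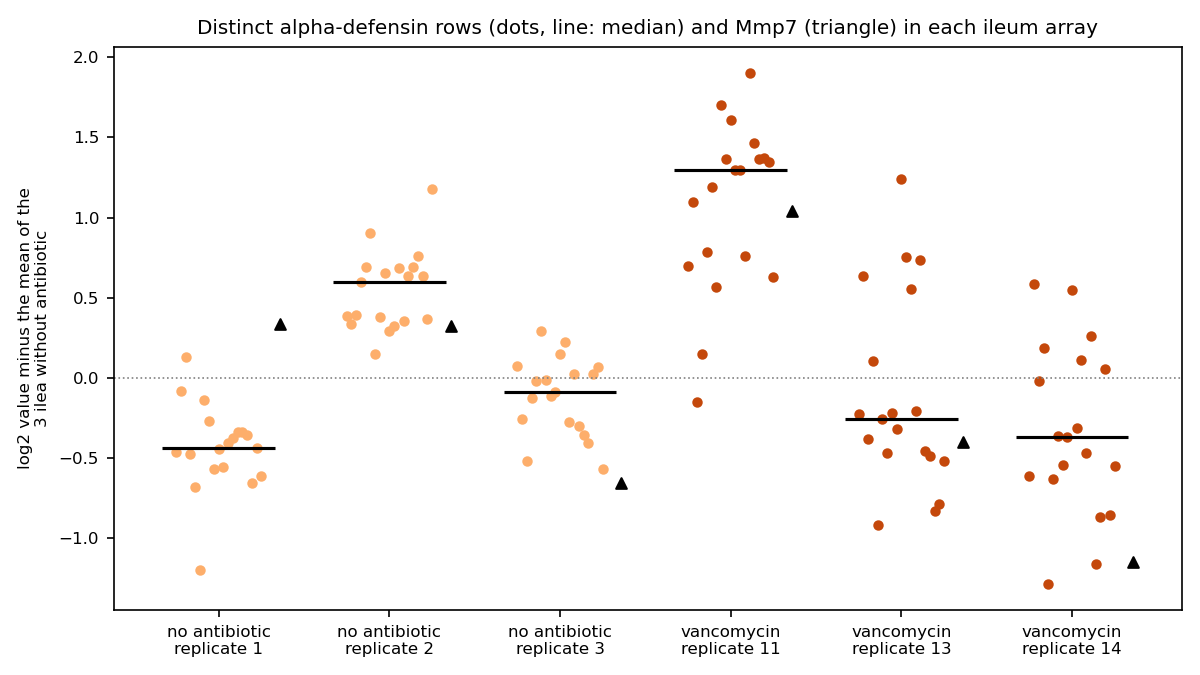
Log2 value minus the mean of the 3 untreated ilea (vertical axis) for the 19 distinct alpha-defensin rows (dots, with a line at their median) and Mmp7 (triangle) in each ileum array. The dots of vancomycin replicate 11 centre on 1.29 and those of replicates 13 and 14 on -0.26 and -0.37, with untreated replicate 2 at 0.60.

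Without replicate 11, the ileum difference was negative in most of these genes, and none was called. It became -0.42 ± 0.27 for Defa3, -0.38 for Defa34 and -0.44 for Defa26, and positive values were left in 6 of the 19 distinct rows with a median of -0.38, against 12 of 19 with a median of 0.10 when the array was kept. The lowest value was that of Defa24, -1.10 ± 0.32 (limma, adjusted p = 0.185). Its remaining treated ilea (13.08 and 12.71) then lay below all untreated ones. The share of all probe sets that separate with this array left out was not counted. Mmp7 moved to -0.77 ± 0.33 (adjusted p = 0.42), whereas Defa20 stayed positive at 0.61 ± 0.20 (adjusted p = 0.243). Untreated replicate 2 had the opposite weight: without it 17 of the 19 rows were positive, with a median of 0.45. Without treated replicate 13 or 14, 17 were positive as well (medians 0.25 and 0.44), and without untreated replicate 1, 6 were (median -0.13). The array that was high in the defensins was also the array high in muscle, fibroblast and B cell genes and low in enterocyte genes, and the part of that tissue mixture in the defensin levels was not tested.

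**Figure D4:**
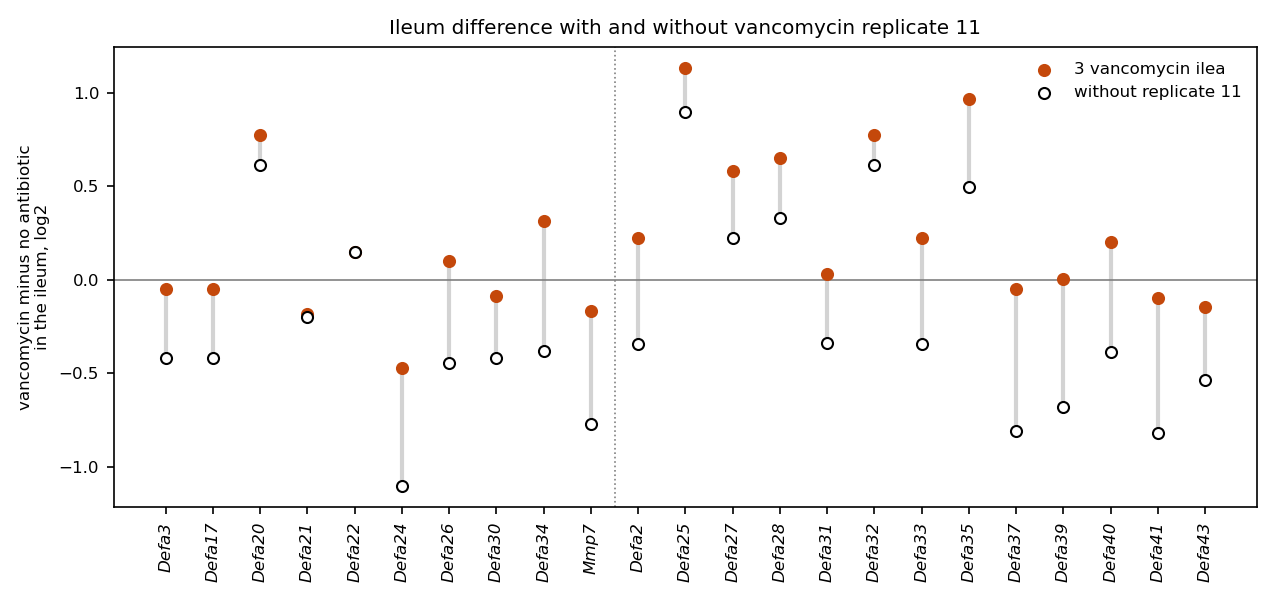
Vancomycin minus no antibiotic in the ileum (vertical axis, log2) for the 10 genes and other alpha-defensin rows, with all 3 treated ilea (filled) and without replicate 11 (open). For Defa24 the value moves from -0.47 to -1.10 and for Defa20 from 0.77 to 0.61.

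In colon, vancomycin left no called difference in the 10 genes, where limma called 0.0102% of all probe sets (2 of 19572; 3107, or 15.9%, at an unadjusted p under 0.05, and 0 of the 10 genes). The differences ran from -0.45 ± 0.42 in Defa24 to 0.24 ± 0.19 in Defa21, with adjusted p between 0.561 and 0.998 and a median of -0.20 against 0.020 over all probe sets. These were the genes in which treated and untreated colons did not overlap, 2 of 10 against 12.3% of all probe sets: Defa24 was lower (5.78, 5.93 and 5.69 against 6.07, 6.04, 6.08 and 6.81) and Defa21 higher (5.97, 5.87 and 5.85 against 5.59, 5.73, 5.48 and 5.83). Both genes lie near the bottom of their own range in colon. Mmp7 differed by -0.19 ± 0.41 in colon (adjusted p = 0.862).

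Whether vancomycin acted differently in the 2 tissues was tested directly as the ileum difference minus the colon difference. Limma called none of the 10 genes and 0.189% of all probe sets (37 of 19572, 1567 at an unadjusted p under 0.05). Defa20 came nearest, at 0.99 ± 0.26 (95% interval 0.43 to 1.56; unadjusted p = 0.00211, limma adjusted p = 0.239), the sum of a higher ileum mean and a lower colon mean with vancomycin (-0.22 ± 0.18 in colon). Defa34 differed by 0.75 ± 0.73 (adjusted p = 0.856) and Defa21 by -0.42 ± 0.28 (adjusted p = 0.748).

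The other alpha-defensin probe sets show how the 9 genes sit in their family. All 22 were higher in every ileum than in every colon, by 0.43 to 9.01 without antibiotic, a separation not counted over all probe sets. Limma called 20 of them higher without antibiotic (9.59% of all probe sets were), all but Defa20 and its duplicate Defa32. With vancomycin it called all 22 higher (7.67% of all probe sets were). None of the 22 was called for vancomycin in ileum or in colon, where 0.536% and 0.0102% of all probe sets were. With arrays weighted by quality, 2 distinct rows were called higher in ileum, Defa20 and Defa25 (1.15 ± 0.23, limma adjusted p = 0.0111). That fit called 5.17% of all probe sets. In the 11 distinct rows outside the 9 genes, the ileum difference was positive in 8 with a median of 0.20, and without replicate 11 in 4 with a median of -0.34. Defa25, named after its values were seen, had the largest difference of the family. It measured 9.35, 10.08 and 9.94 in untreated and 11.40, 11.03 and 10.34 in treated ileum, a separation without overlap. Such a separation occurred in 2 of the 19 distinct alpha-defensin rows and in 16.9% of all probe sets. The Defa25 difference was 1.13 ± 0.31 (95% interval 0.47 to 1.79, limma adjusted p = 0.168), and 0.90 ± 0.31 without replicate 11.

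Other Paneth cell products were read from a list of 21 secretory genes, 20 of them measured. In ileum with vancomycin 1 was called higher (0.0511% of all probe sets were), none lower, and 15 of 20 differed upward (53.7% of all probe sets did), with a median of 0.21 (0.023 over all probe sets). The list's mean was 12.94 in replicate 11 and 11.98 to 12.2 in the other ilea, so this array was the highest here too. Without it 10 of the 20 differed upward (53.4% of all probe sets did) and the median was 0.030. That fit called 3 of the 20, Pnliprp2 and Reg3a higher and Mptx2 lower, and 0.879% of all probe sets (42 higher and 130 lower). Pnliprp2, a pancreatic lipase-related protein, rose by 2.0 ± 0.36 (limma, adjusted p = 0.0271), from 10.13, 11.25 and 11.08 to 13.53, 12.47 and 12.46. That call was lost with the ileum arrays alone (adjusted p = 0.174) and without untreated replicate 1 (0.144), untreated replicate 3 (0.0833) or treated replicate 13 (0.0503), but held without replicate 11 (1.65 ± 0.35, adjusted p = 0.0414).

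Lyz1, the Paneth cell lysozyme, measured 14.07, 14.64 and 14.46 in untreated and 15.30, 14.05 and 14.32 in treated ileum, an overlapping difference of 0.17 ± 0.29 (limma, adjusted p = 0.885). Ang4, an antimicrobial ribonuclease, measured 12.68, 13.20 and 12.50 in untreated and 15.15, 13.50 and 13.35 in treated ileum. These did not overlap, as in 16.9% of all probe sets, and differed by 1.21 ± 0.50 (limma, adjusted p = 0.431). Without replicate 11 the Ang4 difference was 0.63 ± 0.44. Copz2, a coat protein subunit, differed by 0.67 (adjusted p = 0.446). Among the antibacterial lectins, Reg3a differed by 0.64 (adjusted p = 0.507; 1.06, adjusted p = 0.0451, without replicate 11; 0.95, adjusted p = 0.010, with array weights) and Reg3g by -0.33 (adjusted p = 0.850).
Between tissues without antibiotic, 8 of the 20 were called higher in ileum and 5 lower, against 9.59% and 11% of all probe sets. Reg3g (6.55), Reg3a (6.40), Lyz1 (5.06) and Pnliprp2 (2.23) were higher in ileum like the defensins, whereas Ang4 (-1.77; limma, adjusted p = 0.0140) and Copz2 (-1.50) were lower there, with Ang4 reaching 14.09 to 15.05 in the untreated colons.

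Genes that specify Paneth cells or belong to the Wnt pathway showed no called change with vancomycin in ileum (0 of 19 measured). That is near the 0.536% called over all probe sets. Of the 19, 9 differed upward (53.7% of all probe sets did), with a median of -0.050. Tcf7l2, the TCF factor of the intestinal epithelium, differed by -0.80 ± 0.23 (limma, adjusted p = 0.182), the Wnt target Ascl2 by -0.43 (adjusted p = 0.344) and Ephb3, the receptor that positions Paneth cells at the crypt base, by -0.58 (adjusted p = 0.431). Sox9, required for Paneth cells to form, differed by 0.027 (adjusted p = 0.987) and Atoh1, the secretory lineage factor, by -0.093 (adjusted p = 0.940). Without antibiotic 2 of the 19 were called higher in ileum, a share near the 9.59% of all probe sets, and 6 lower, against 11%. Sox9 (-2.18), Fgfr3 (-1.75), Ephb3 (-1.54), Atoh1 (-1.30) and Tcf7l2 (-0.63) were lower in ileum, the reverse of the defensins.

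Among 23 measured genes for granules, autophagy and bacterial sensing, 0 were called with vancomycin in ileum, near the 0.536% of all probe sets. Of the 23, 6 differed upward (median -0.13), where 53.7% of all probe sets did. Irgm1, an interferon-induced GTPase of autophagy, differed by -1.13 ± 0.29 (limma, adjusted p = 0.136). Its difference was -1.47 without untreated replicate 2 (limma, adjusted p = 0.0256) but -0.78 without untreated replicate 1 (adjusted p = 0.424). Bhlha15, a transcription factor of secretory cells, differed by -0.64 (adjusted p = 0.384), Tlr2 by -0.52 (adjusted p = 0.365), Nod2, the muramyl dipeptide sensor, by -0.41 (adjusted p = 0.494) and Tlr4 by -0.060 (adjusted p = 0.970). With array weights 4 of the 23 were called, all lower, against 5.17% of all probe sets in either direction: Tlr2 (-0.81, adjusted p = 0.00836), Irgm1 (-1.19, adjusted p = 0.0163), Bhlha15 (-0.81, adjusted p = 0.0187) and Nod2 (-0.65, adjusted p = 0.0256). Nod2 was dim, at 5.45 to 5.68 in untreated and 4.82 to 5.42 in treated ileum, where array medians were 7.92 to 8.12. It was not tested without the dimmest 33.3% of probe sets. The weighted fit leaned most on treated replicate 13 (weight 3.79). Without replicate 11, the array with a low weight (0.302), limma called none of the 4. Without antibiotic 3 of the 23 were called higher in ileum, near the 9.59% of all probe sets, and 6 lower, against 11%, the latter including Creb3l1 (-3.41), Tlr4 (-3.01) and Tlr2 (-0.96).

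Of 23 measured metalloproteinases and their inhibitors, 0 were called with vancomycin in ileum, near the 0.536% of all probe sets. In this list 15 differed upward (median 0.20), where 53.7% of all probe sets did. The list's mean was 7.672 in replicate 11 and 7.072 to 7.217 in the other ilea, and without that array 13 of the 23 differed upward (median 0.018). Mmp16 differed by 0.93 (limma, adjusted p = 0.440), with replicate 11 at 8.90 and the other treated ilea at 7.11 and 7.18, and by 0.34 without it. In the same comparison, Mmp19 differed by 0.31 (adjusted p = 0.515), Mmp9 by -0.27 (adjusted p = 0.535) and the inhibitor Timp1 by -0.063 (adjusted p = 0.955). Without antibiotic 1 of the 23 was called higher in ileum, the stromelysin Mmp10 (1.31, adjusted p = 0.0044), against 9.59% of all probe sets, and 5 lower, including Mmp14 (-1.31), against 11%. Mmp7 was counted apart from this list.

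A list of beta-defensins, cathelicidin and other antimicrobial proteins held genes mostly made outside Paneth cells. With vancomycin in ileum, 0 of its 20 measured genes were called, near the 0.536% of all probe sets. Of the 20, 10 differed upward (median -0.017), where 53.7% of all probe sets did. In this list Lypd8 differed by -0.41 (limma, adjusted p = 0.483), Pglyrp1 by -0.38 (adjusted p = 0.510), and Defb1 by 0.17 (adjusted p = 0.769). Lcn2, a siderophore-binding protein, differed by 2.22 ± 1.20 (adjusted p = 0.554), a value carried by replicate 11 at 12.51 where the other treated ilea measured 6.86 and 7.28 and the untreated 6.40 to 7.16, and by 0.40 without that array. Deep crypt secretory and goblet genes of the colon had 0 of 14 called in ileum, near the 0.536% of all probe sets. Of the 14, 6 differed upward (median -0.0033), where 53.7% of all probe sets did, and 9 without replicate 11 (53.4%). Reg4 differed by 0.68 (limma, adjusted p = 0.579), Retnlb by -0.93 (adjusted p = 0.656) and Muc4 by -0.30 (adjusted p = 0.790). Without antibiotic, 8 of these 14 were called lower in ileum, against 11% of all probe sets, Retnlb by -3.80 and Muc4 by -2.52 among them, and 1 higher, near the 9.59% of all probe sets, Clca4b by 5.66.

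The genes whose levels followed the mean of the 9 alpha-defensins most closely over the 13 arrays, outside the family and Mmp7, were Lyz1 (Pearson r = 0.994), Lgals2 (0.994), Tkfc (0.993), Sis (0.989), Mttp (0.989) and Naaladl1 (0.989). The alpha-defensin mean included the row shared by Defa3 and Defa17 for both genes. Arrays share tissue, so the correlations mostly restate the difference between ileum and colon. Within the 6 ilea, of the 6 correlated genes only Lyz1 kept a high value (r = 0.917), while Tkfc gave 0.502, Lgals2 0.187, Sis -0.481, Mttp -0.546 and Naaladl1 -0.823. Sis and Mttp are enterocyte genes, for sucrase-isomaltase and lipoprotein assembly.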

How the data were processed

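Total RNA from whole ileum or colon was measured on 13 one-colour Affymetrix arrays. The deposited table holds log2 values made by the authors with RMA (Affymetrix Expression Console 1.4.1.46), as the submitters' processing notes record; background correction and quantile normalisation in RMA force the arrays to similar distributions and can compress differences. Of 28846 probe sets, the 19572 with exactly 1 gene symbol were used. Probe sets were named through the platform annotation, and all 10 genes matched RefSeq (GRCm38.p6) by Entrez identifier. Alternatives were array weights, a trended robust prior, only the groups compared, no dimmest 33.3%, median or 75th percentile centring, averaged rows, a replicate block, and each array left out.

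A model of 4 group means was fitted to all 13 arrays with limma 3.58.1 in R 4.3.3 and moderated with eBayes, and Benjamini-Hochberg adjustment ran over all 19572 probe sets, with a threshold of 0.05. The script was tested on simulated data. Replicate numbers were checked for pairing: in 6 same-numbered pairs the correlation of deviations ran from -0.016 to 0.24. It was over 0.1 in 3, the vancomycin replicates 11, 13 and 14, and 4 of the 6 correlated best with their own number. The main fit did not treat them as pairs, and a replicate block was run as an alternative. Whether same-numbered arrays share a mouse or a processing step was not tested. The number of arrays limits the precision. The members and gene lists were chosen with earlier results of these data known. All 10 genes are named; from each related list the 3 genes with the smallest p for vancomycin in ileum and the 2 with the smallest p between tissues are named, with 8 fixed genes and the 6 most alike. Protein and probe sequences were not used here.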

Additional observations from a re-analysis of the deposited data

Results flagged for a closer look

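In the colons without antibiotic, Dixon's ratio, the gap of the most extreme array to its neighbour over the range of the group, passed the 95% critical value for 4 arrays in 4 of the 43 genes tested, and chance gives about 1 in 20. For Defa20 the ratio was 0.977, with replicate 5 at 6.81 and the others at 7.24 to 7.25. For Defa24 it was 0.948, again with replicate 5 apart, at 6.81 against 6.04 to 6.08. For Mmp7 it was 0.831, with replicate 1 at 7.51 against 6.68 to 6.82. For Mmp14 it was 0.843. These arrays set part of the colon spread but no ileum value. Because the 4 groups share 1 estimate of the spread in the model, they also enter the SE of the ileum differences.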

How the results depend on the processing

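The tissue difference kept its direction in all 10 genes under every alternative run; without the dimmest 33.3% of probe sets Defa21 and Defa22 were not tested. For vancomycin in ileum, none of the 10 was called under any alternative except array weights, which called 1, Defa20 (0.64, adjusted p = 0.0264), along with Defa25 among the other alpha-defensins and with Tlr2, Nod2, Bhlha15, Irgm1 and Reg3a. The cause was not tested for any of the changes below. Over all probe sets, the 105 calls in ileum became 20 with the ileum arrays alone and 1012 with array weights. The weights of the treated ilea were 0.302 (replicate 11), 3.79 (replicate 13) and 0.644 (replicate 14). With an array left out, the ileum calls ranged from 40 (without untreated replicate 3) to 172 (without treated replicate 11). The 2 calls in colon became 0 with the colon arrays alone or with median or 75th percentile centring, 1 without dim probe sets, 38 with weights, and 0 to 217 (without untreated replicate 3) with an array left out. Between tissues with vancomycin, 2961 calls became 1875 with those groups alone and 4903 with weights. The 37 calls for the difference between tissues became 191 with weights, and 12 (without treated colon replicate 13) to 84 (without treated ileum replicate 11) with an array left out.

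With the replicate number as a block, the calls for the difference between tissues were 23 (fixed) or 43 (random), those between tissues 4136 or 4389 without antibiotic and 1979 or 3313 with it, and those for vancomycin 104 in ileum and 2 in colon (random). The fixed block turned Lcn2 between untreated tissues to 0.25. No call on the 10 genes changed under the block, and in 4 of the 6 same-numbered pairs the arrays correlated best with their own number.

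Array weights reversed the ileum vancomycin difference of Defa26 (-0.29), Defa34 (-0.17), Lyz1 (-0.24), Clca4b (0.0039), Sox9 (-0.078) and Atoh1 (0.089), the colon difference of Defa30 (0.042; 0.063 with 75th percentile centring), and the difference between tissues of Defa3 and Defa17 (-0.11), Defa26 (-0.39) and Mmp7 (-0.20). That of Mmp7 was also reversed by median (-0.028) and 75th percentile (-0.030) centring, and that of Defa26 by the latter (-0.0017). None of these values was called.

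Leaving out an array in turn also reversed uncalled differences. In ileum with vancomycin the ranges were -0.42 to 0.24 for Defa3 and Defa17, -0.44 to 0.012 for Defa21, -0.090 to 0.45 for Defa22, -0.50 to 0.56 for Defa26, -0.42 to 0.11 for Defa30, -0.38 to 0.74 for Defa34, -0.77 to 0.32 for Mmp7, -0.21 to 0.42 for Lyz1, -0.51 to 0.26 for Tlr4, -0.060 to 0.52 for Mmp14, -0.53 to 0.20 for Clca4b, -0.30 to 0.32 for Sox9, -0.23 to 0.027 for Atoh1 and -0.17 to 0.11 for Timp1. In colon they were -0.17 to 0.093 for Defa22, -0.14 to 0.33 for Defa26, -0.33 to 0.18 for Defa30 and -0.33 to 0.0033 for Mmp7. Between untreated tissues they were -0.19 to 0.0033 for Ascl2, -0.29 to 0.025 for Bhlha15 and -0.44 to 0.25 for Lcn2. For the difference between tissues they were -0.17 to 0.48 for Defa3 and Defa17, -0.091 to 0.44 for Defa22, -0.65 to 0.38 for Defa24, -0.55 to 0.50 for Defa26, -0.38 to 0.24 for Defa30 and -0.59 to 0.51 for Mmp7. With 3 or 4 arrays a group, ileum differences within these ranges cannot be resolved.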
